A study of Mus musculus with 10 samples.

Results

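The genes described here encode proteins that coat lipid droplets or help them form. They are the perilipins Plin1, Plin2, Plin3, Plin4 and Plin5, the droplet fusion protein Cidec, the droplet formation proteins Fitm1, Fitm2 and Bscl2, and the droplet-bound lipase inhibitor Hilpda. They were picked by symbol from the deposited count table, which held 10 of 10 members, 1 gene identifier each, among 40501 identifiers. The table covers bulk RNA-seq of inguinal white fat in 10 samples from male C57/BL6J mice. Their labels give 8 weeks as the time on chow in one place and as the age in another. The 5 Control samples (replicates 2, 3, 5, 7 and 8) were Cre-negative, while the 5 PexRAP-AKO samples (replicates 1, 2, 3, 5 and 6) came from Cre-positive mice lacking PexRAP in fat. The Cre driver, the targeted allele and its presence in Cre-negative mice are not stated in those labels. The labels name 1 sample per replicate number without stating that each is a separate animal, so p-values measure the spread between these samples.

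A lipid droplet is a core of triglyceride and sterol ester under a single layer of phospholipid. Seipin, the product of Bscl2, organises the sites on the endoplasmic reticulum where droplets bud, and the FIT proteins act at the same membrane. Perilipins then cover the surface and set how far lipases reach the fat inside, and in white fat cells Cidec moves lipid between touching droplets until 1 large droplet fills the cell. PexRAP, the product of Dhrs7b, reduces acyl and alkyl dihydroxyacetone phosphate on the way to ether phospholipids. How its loss bears on the transcripts of droplet proteins is the comparison made here.

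The libraries held 11274865 to 19881168 counts. Levels are given as counts relative to library size (CPM) after TMM scaling, and as CPM per kilobase of exon (RPKM) where genes are compared with each other. The exon length merges all annotated exons of a gene and can exceed that of the transcript expressed. Comparisons between genes therefore depend on the annotation. The genotype labels were checked first on Dhrs7b, which stood at 61.2 to 95.8 CPM in Control and at 17.9 to 22.8 CPM in PexRAP-AKO, with no overlap (exact two-sided permutation p = 0.00794, the smallest 5 against 5 samples can give). All 8 adipocyte markers were counted in every library, and they summed to 36973 to 48278 CPM in Control and 36996 to 46095 CPM in PexRAP-AKO. The 8 endothelial markers, none at 0 in any library, narrowly separated the groups by their sum. It ran from 852 to 1048 CPM in Control and from 607 to 849.7 CPM in PexRAP-AKO. By the mean log2 CPM of the markers the groups overlapped, at 6.51 to 6.79 in Control and 6.01 to 6.53 in PexRAP-AKO. Of these 8, 0 had a positive log2 fold change (median -0.26), 4 had an unadjusted p under 0.05 and edgeR called 0. Their part in the differences described below was not tested. PexRAP-AKO replicate 6 stood apart by lymphocyte markers (124.8 CPM, against 6.90 to 40.9 CPM in the other 9 libraries) and Control replicate 8 by skeletal muscle markers (1621 CPM, against 63.1 to 553 CPM). The fold changes below were therefore also computed without these 2 libraries.

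Plin2 stood higher in PexRAP-AKO, Plin3 and Bscl2 slightly so, Plin5 stood higher and Plin4 lower on average with wide spread, and Plin1, Cidec, Fitm2 and Hilpda stood within 10% of Control. Of the 10 members, 9 had enough counts to be tested and Fitm1 did not. None of the 9 passed edgeR's quasi-likelihood test at a Benjamini-Hochberg adjusted p under 0.05, a rule that called 0.101% of the 14913 genes tested. At an unadjusted p under 0.05 there were 3 of 9, all higher in PexRAP-AKO (Plin2, Plin3 and Bscl2), where 15.5% of all tested genes met that rule and 9.01% met it in that direction. DESeq2 called 1 of the 9, Plin2, and gave another, Hilpda, no adjusted p. Of all genes to which DESeq2 gave an adjusted p, it called 4.27%. By limma voom 0 of 9 were called, against 0.127% of all genes tested. The groups did not fully separate for any of the 9, against 3.41% of all tested genes that did. Without PexRAP-AKO replicate 6 and Control replicate 8, edgeR called 0 of 9, and the log2 fold change of Plin2 was 0.63 (adjusted p = 0.257). The median log2 fold change of the 9 was 0.01 and that of all genes tested was -0.00065.

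**Figure D1:**
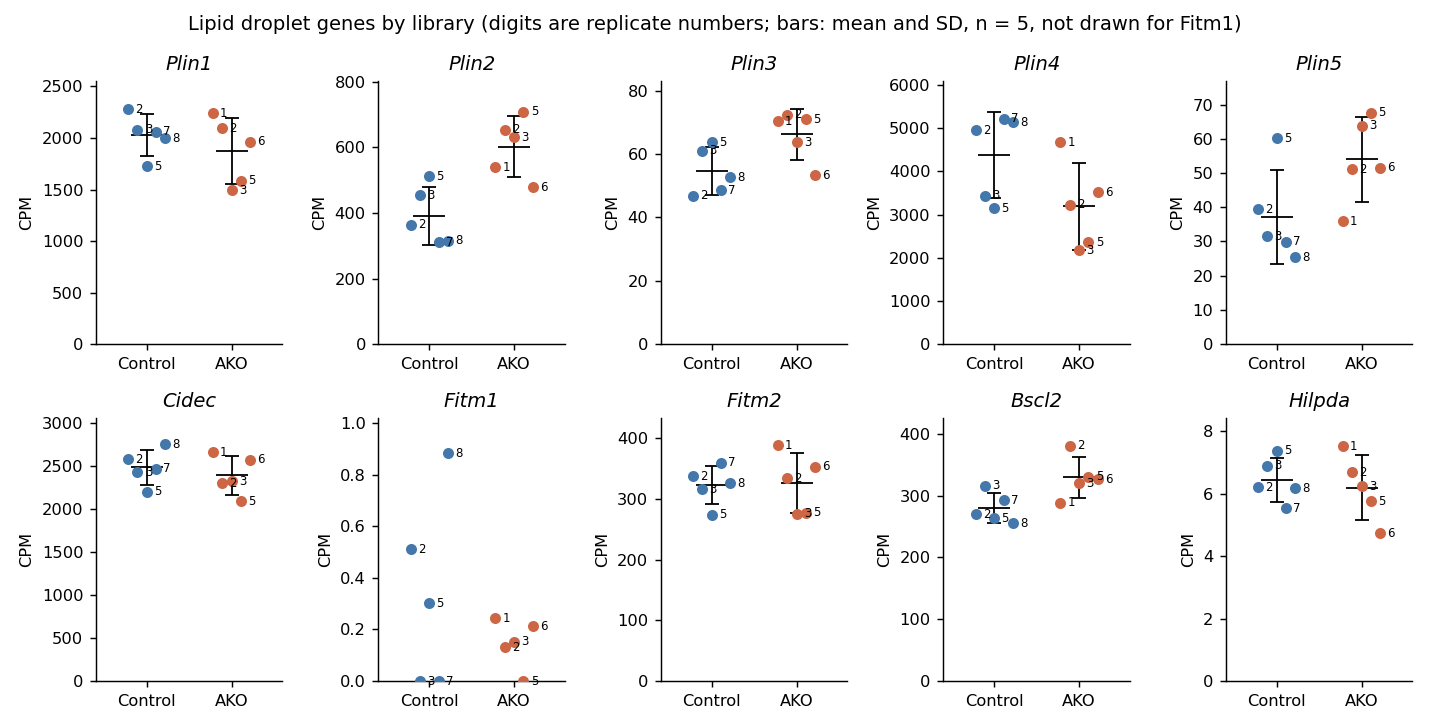
CPM of each gene in each library (dots, digits giving the replicate number), with the mean and SD of 5 libraries as bars; AKO stands for PexRAP-AKO. Plin2 lies at 311 to 512 CPM in Control and at 478 to 709 CPM in PexRAP-AKO, and Fitm1 stays under 1 CPM, with no bars drawn.

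Plin1 (ENSMUSG00000030546, chromosome 7, 79720218 to 79732903, GRCm38) encodes the main perilipin of fat cells, which holds the lipase co-activator Abhd5 until protein kinase A phosphorylates the coat. It ran from 1724 to 2281 CPM in Control and from 1493 to 2239 CPM in PexRAP-AKO. The means were 2029.7 ± 201 and 1876 ± 323 CPM (SD, n = 5 each), and the log2 fold change was -0.11 (95% interval -0.39 to 0.17, edgeR adjusted p = 0.718). The interval, which is not adjusted for the number of genes, spans 0.761 to 1.12 times the Control level. Among PexRAP-AKO libraries, replicates 3 and 5 were lowest, under each Control library.

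Plin2 (ENSMUSG00000028494, chromosome 4, 86648386 to 86670060) encodes the perilipin found on droplets of most cell types, a protein that is degraded when it is not bound to lipid. Control replicates 2, 3, 5, 7 and 8 had 365, 454, 512, 311 and 316 CPM. PexRAP-AKO replicates 1, 2, 3, 5 and 6 had 540.1, 654, 632, 709 and 478 CPM. Of the PexRAP-AKO libraries, 4 lay above every Control library, and the overlap came from PexRAP-AKO replicate 6 and Control replicate 5. The means were 391 ± 88.6 and 603 ± 92.5 CPM (SD, n = 5 each). The log2 fold change of 0.62 (SE 0.16), 1.54 times the Control level with a 95% interval of 1.21 to 1.95, did not pass over all genes in edgeR (adjusted p = 0.133). DESeq2 called it (log2 fold change 0.62, adjusted p = 0.00772), and it is the only member that any of the 20 alternatives called. Its unadjusted p was under 0.05 in 20 of 20 alternatives, with log2 fold changes of 0.41 to 0.74.

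Plin3 (ENSMUSG00000024197, chromosome 17, 56277476 to 56292873) encodes a perilipin that stays stable in the cytosol and moves onto new droplets. Control libraries averaged 54.6 ± 7.48 CPM and PexRAP-AKO libraries 66.1 ± 7.95 CPM (SD, n = 5 each). PexRAP-AKO replicates 1, 2, 3 and 5 had 63.7 to 72.4 CPM, above the highest Control value of 63.6 CPM, while replicate 6 had 53.3 CPM, below 2 of the 5 Control libraries. The log2 fold change was 0.27 (SE 0.11, edgeR adjusted p = 0.248). Its unadjusted p was under 0.05 in 10 of 20 alternatives, among them 4 of the 10 fits that leave out a single library.

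Plin4 (ENSMUSG00000002831, chromosome 17, 56100591 to 56109803) encodes a long perilipin of white fat cells that binds small, newly made droplets through many repeats of a helix-forming stretch. Control replicates 2, 3, 5, 7 and 8 had 4943, 3437, 3149.9, 5218 and 5129 CPM. PexRAP-AKO replicates 1, 2, 3, 5 and 6 had 4667, 3229, 2168, 2361 and 3514 CPM. Of the Control libraries 3 lay above every PexRAP-AKO library, and of the PexRAP-AKO libraries 2 lay below every Control library, with the rest overlapping. The means were 4375 ± 998 and 3188 ± 1002 CPM (SD, n = 5 each), with a log2 fold change of -0.46 (SE 0.22, edgeR adjusted p = 0.354).

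Plin5 (ENSMUSG00000011305, chromosome 17, 56111601 to 56117596) encodes the perilipin of oxidative tissues such as heart, muscle and brown fat, where it ties droplets to mitochondria. Control replicates 2, 3, 5, 7 and 8 had 39.5, 31.5, 60.1, 29.9 and 25.4 CPM. PexRAP-AKO replicates 1, 2, 3, 5 and 6 had 35.9, 51.04, 63.8, 67.7 and 51.6 CPM. Control replicate 5 stood among the high PexRAP-AKO libraries and PexRAP-AKO replicate 1 among the Control libraries. The means were 37.3 ± 13.7 and 54.0 ± 12.5 CPM (SD, n = 5 each), with a log2 fold change of 0.53 (SE 0.24, edgeR adjusted p = 0.335). Without single libraries the log2 fold change ran from 0.42 (without Control replicate 8, adjusted p = 0.550) to 0.77 (without Control replicate 5, adjusted p = 0.125), none passing.

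**Figure D2:**
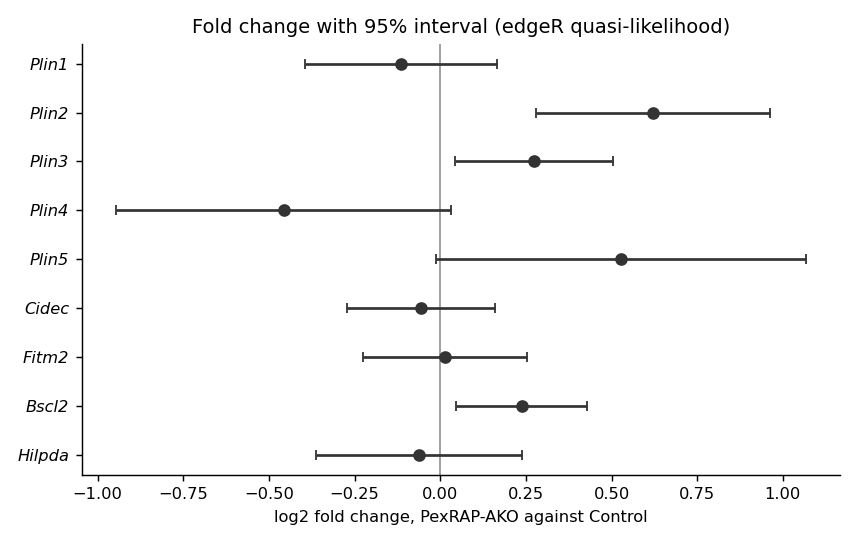
Log2 fold change of PexRAP-AKO against Control for the 9 tested genes (dots) with the 95% interval of edgeR's quasi-likelihood fit (bars, not adjusted for the number of genes). The intervals of Plin2 (0.28 to 0.96), Plin3 and Bscl2 lie above 0, while those of Plin1, Plin4, Plin5, Cidec, Fitm2 and Hilpda include 0.

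Set beside each other per length, Plin4, Plin1 and Plin2 were the abundant perilipins and Plin5 and Plin3 the scarce ones, and their proportions varied between libraries. Plin4 supplied 49.2% to 61.9% of the summed perilipin RPKM in Control and 40.6% to 54.6% in PexRAP-AKO. Plin1 supplied 30.0% to 37.2% and 32.6% to 36.3%, a steady share in both groups. Plin2 supplied 6.05% to 13.2% in Control, with the highest value in replicate 5, and 10.4% to 20.1% in PexRAP-AKO, with the highest values in replicates 3 and 5. The ratio of Plin1 to Plin2 RPKM averaged 4.11 ± 1.06 over Control libraries and 2.43 ± 0.69 over PexRAP-AKO libraries (SD, n = 5 each). Plin3 and Plin5 each stayed at 3.31% or less. The 5 perilipins summed to 1338 ± 171 RPKM over Control libraries and 1170.3 ± 218 RPKM over PexRAP-AKO libraries (SD, n = 5 each). These shares rest on merged exon lengths, from 2087 bases for Plin5 to 5777 for Plin4. They describe the libraries and were not tested.

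**Figure D3:**
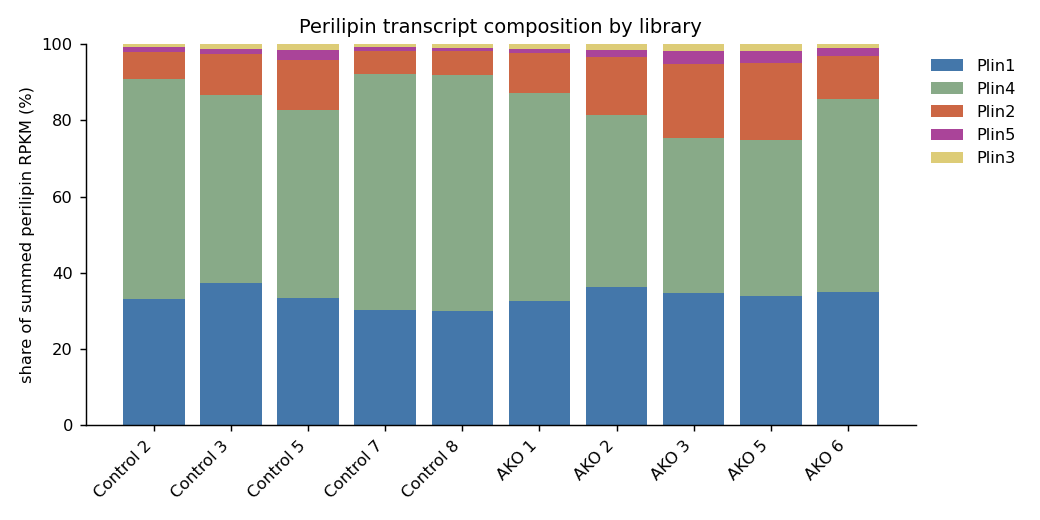
Share of the summed perilipin RPKM (percent, stacked bars) taken by each perilipin in each library; AKO stands for PexRAP-AKO. The Plin2 segment covers 6.05% to 13.2% in Control and 10.4% to 20.1% in PexRAP-AKO, and the Plin4 segment is smallest in PexRAP-AKO replicates 3 and 5.

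Transcripts of brown adipocytes varied between these libraries, and Plin4, Plin5, Plin2 and Cidec (described further below) varied with them. Of 15 listed brown adipocyte markers 14 were tested, and all 14 had a positive log2 fold change (median 0.80), with 0 called by edgeR and 3 at an unadjusted p under 0.05. The list summed to 295 to 2365 CPM in Control and 631 to 3058 CPM in PexRAP-AKO. Ucp1, the uncoupling protein that defines brown and beige fat, was counted in every library, from 28.6 to 1159 CPM in Control and from 94.1 to 1603 CPM in PexRAP-AKO, and Zic1 was at 0 in 2 of 10 libraries. Control replicate 5 and PexRAP-AKO replicates 3 and 5 had the most brown adipocyte transcripts, and they also had the most Plin5 and the least Plin4. These libraries also had the highest macrophage marker sums, 1547 to 2281 CPM, against 752 to 1151 CPM in the others. Their adipocyte marker sums were the lowest, 36973 to 37404 CPM, against 40893 to 48278 CPM. The separate parts of these contents in Plin4 and Plin5 were not tested. In bulk tissue, fewer cells of a type and less RNA per cell cannot be told apart.

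This relation was examined after the values had been seen, as 36 relations between the 9 tested genes and 4 marker scores (brown adipocyte, skeletal muscle, macrophage and adipocyte, each the mean log2 CPM of its tested markers). Over the 10 libraries, which share a library's scaling between the gene and its score, Plin5 and the brown adipocyte score had Pearson's r = 0.93 (permutation p = 0.00018, adjusted over the 36 p = 0.00468) and Spearman's rho = 0.94 (permutation p = 0.00028, adjusted p = 0.00504). Plin4 went the other way, with r = -0.92 (permutation p = 0.00026, adjusted p = 0.00468) and rho = -0.96 (permutation p = 5.00e-05, adjusted p = 0.0018). Plin2 had r = 0.84 (permutation p = 0.00335, adjusted p = 0.0239) and rho = 0.79 (permutation p = 0.00866, adjusted p = 0.0624), so its rank correlation did not pass. Without Control replicates 7 and 8, the 2 libraries farthest from the median score, r was 0.87 for Plin5, -0.93 for Plin4 and 0.60 for Plin2 over 8 libraries. As deviations from each group's mean, which take out the difference between genotypes, r was 0.91 for Plin5, -0.89 for Plin4 and 0.83 for Plin2. Plin1 and Fitm2 also went against the brown adipocyte score without passing, with r = -0.67 and -0.68 (permutation test, adjusted p = 0.0874 for each). Without Control replicates 7 and 8 their r was -0.91 and -0.87.

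**Figure D4:**
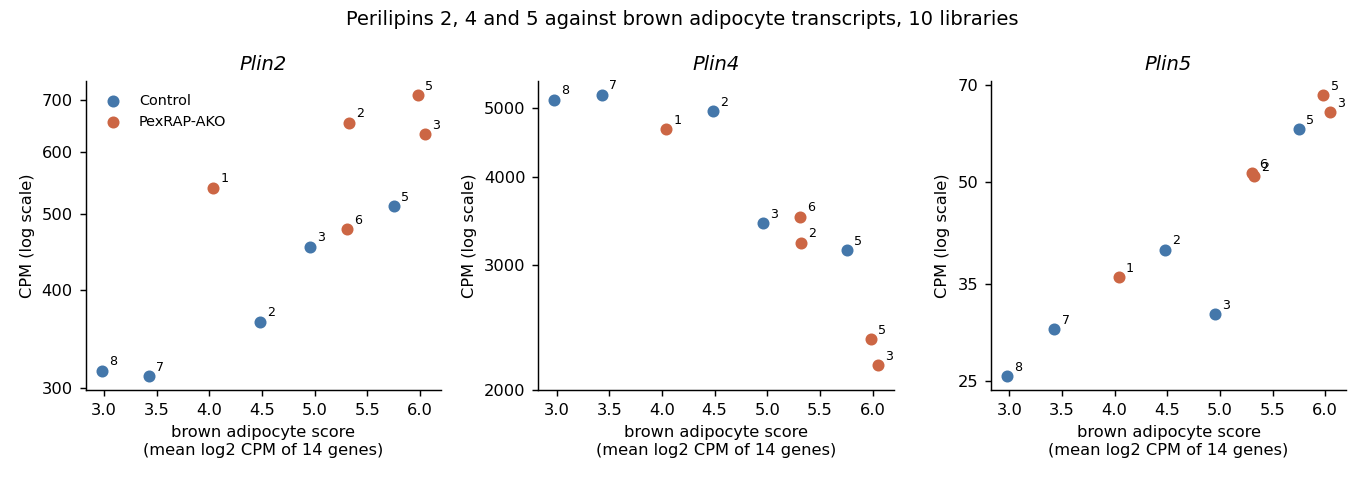
CPM (log scale) of Plin2, Plin4 and Plin5 against the brown adipocyte score (mean log2 CPM of 14 tested markers) in the 10 libraries, digits giving the replicate number. Plin5 is higher and Plin4 lower in libraries with a higher score in both groups, and PexRAP-AKO replicates 3 and 5 sit at the far right.

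With the brown adipocyte score added to the edgeR model, the log2 fold change of Plin5 went from 0.53 to 0.15 (adjusted p = 0.754) and that of Plin4 from -0.46 to -0.11 (adjusted p = 0.855). That of Plin2 went from 0.62 to 0.41 (adjusted p = 0.349). All 14 tested brown adipocyte markers had a positive log2 fold change, so the score itself was higher on average in PexRAP-AKO. A fit with it can therefore also take out a difference that belongs to the genotype, and the 2 were not told apart. With the skeletal muscle score in place of the brown adipocyte score, the log2 fold changes of Plin5, Plin4 and Plin2 were 0.59, -0.40 and 0.56, none passing. Macrophages also store lipid under Plin2, and the 12 macrophage markers summed to 891 to 1867 CPM in Control and 752 to 2281 CPM in PexRAP-AKO, with none at 0 in any library. With the macrophage score as a covariate, chosen after seeing the data, the log2 fold change of Plin2 was 0.59 (edgeR adjusted p = 0.0558).

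Plin4 and Plin5 are neighbours on the minus strand of chromosome 17, with 1797 bases between the end of Plin5 and the start of Plin4 in GENCODE M21, and their mean differences between the groups had opposite signs. The ratio of Plin4 to Plin5 RPKM ran from 18.9 (replicate 5) to 73.0 (replicate 8) in Control and from 12.3 (replicate 3) to 47.02 (replicate 1) in PexRAP-AKO. The start-site windows of these neighbours are shown beside that of Plin2, the member with the largest log2 fold change, in 300 bases from 250 before to 50 after the start site, from RefSeq (GRCm38.p6). All 10 members were found in the RefSeq table, with 15 windows in all. Capitals mark matches on either strand to AGGTCA, the half-site bound by PPAR and other nuclear receptors, and to ACGTG, a form of the core of the hypoxia response element. The form GCGTG was not searched and is not marked.
Plin2, chr4:86670010-86670309, minus strand: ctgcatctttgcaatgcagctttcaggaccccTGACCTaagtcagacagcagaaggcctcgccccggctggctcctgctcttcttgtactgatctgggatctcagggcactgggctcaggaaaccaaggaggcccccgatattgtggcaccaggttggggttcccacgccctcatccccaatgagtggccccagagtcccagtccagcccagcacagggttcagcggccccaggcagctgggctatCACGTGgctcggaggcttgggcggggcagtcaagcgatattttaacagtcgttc
Plin5, chr17:56117499-56117798, minus strand: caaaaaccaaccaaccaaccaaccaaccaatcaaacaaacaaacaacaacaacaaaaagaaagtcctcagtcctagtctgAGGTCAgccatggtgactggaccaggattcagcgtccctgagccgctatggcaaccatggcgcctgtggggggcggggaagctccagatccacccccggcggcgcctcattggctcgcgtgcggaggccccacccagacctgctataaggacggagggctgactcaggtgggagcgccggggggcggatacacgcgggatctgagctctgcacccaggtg
Plin4, chr17:56109733-56110032, minus strand: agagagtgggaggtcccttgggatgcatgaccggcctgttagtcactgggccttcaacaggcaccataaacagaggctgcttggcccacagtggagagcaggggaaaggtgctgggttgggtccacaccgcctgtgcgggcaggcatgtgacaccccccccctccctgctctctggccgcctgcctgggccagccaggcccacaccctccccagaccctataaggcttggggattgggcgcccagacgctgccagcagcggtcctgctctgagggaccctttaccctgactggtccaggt

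AGGTCA was found in windows of Plin2, Plin5 and Bscl2, 4 of the 15 windows, and in 16.3% of all 32851 windows of that length in the table. In Plin2 it lies on the opposite strand 218 bases before the start site. In Plin5 it begins 170 bases before the start site shown, and a second Plin5 window, chr17:56117249-56117548, holds another match. ACGTG was found in 1 window each of Plin2 and Hilpda, against 19.6% of all windows, and in Plin2 its matches on the 2 strands overlap as 1 site that spans the start. The Plin4 window holds neither motif. These matches describe letters and not binding.

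Cidec (ENSMUSG00000030278, chromosome 6, 113424634 to 113435760) was the most abundant member per length, with 1339.9 ± 109 RPKM over Control and 1289 ± 123 RPKM over PexRAP-AKO libraries (SD, n = 5 each). In CPM it ran from 2203 to 2753 in Control and from 2096 to 2661 in PexRAP-AKO, nearly the same range. The log2 fold change was -0.06 (95% interval -0.27 to 0.16, edgeR adjusted p = 0.834). Its Pearson correlation with the brown adipocyte score was -0.79 (permutation p = 0.00731, adjusted over the 36 p = 0.0329) and its rho was -0.83 (permutation p = 0.00436, adjusted p = 0.0507), with r = -0.83 over 8 libraries without Control replicates 7 and 8.

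Among the formation genes, Bscl2 (ENSMUSG00000071657, chromosome 19, 8837467 to 8848683) encodes seipin, whose loss causes inherited lipodystrophy. It had 270.4, 316, 264, 292 and 255 CPM in Control replicates 2, 3, 5, 7 and 8, and 289, 381, 321, 331 and 327 CPM in PexRAP-AKO replicates 1, 2, 3, 5 and 6. Of the PexRAP-AKO libraries, 4 lay above every Control library, and replicate 1 lay below Control replicates 3 and 7. The log2 fold change was 0.24 (SE 0.09, 1.18 times the Control level, edgeR adjusted p = 0.232). With the skeletal muscle score in the model it was 0.15 (adjusted p = 0.400), a move of over 1.5 times. The muscle markers summed to 64.7 to 1621 CPM in Control and 63.1 to 196 CPM in PexRAP-AKO, with Tnnc2 at 0 in 9 of 10 libraries and Ckm at 0 in 1. Of 15 tested muscle markers, 0 had a positive log2 fold change (median -2.16), 9 had an unadjusted p under 0.05 and edgeR called 0. The muscle score was thus itself lower on average in PexRAP-AKO. A fit with it can also take out a difference that belongs to the genotype. DESeq2 gave Bscl2 an adjusted p of 0.0885.

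Fitm2 (ENSMUSG00000048486, chromosome 2, 163466379 to 163472629), the broadly expressed FIT protein, an enzyme of the endoplasmic reticulum needed for droplets to bud, ran from 275 to 360 CPM in Control and from 276 to 389 CPM in PexRAP-AKO. The log2 fold change was 0.01 (95% interval -0.22 to 0.25, edgeR adjusted p = 0.966), and its sign turned under 7 of 20 alternatives. Fitm1 (ENSMUSG00000022215, chromosome 14, 55575617 to 55576954), the FIT protein of skeletal muscle and heart, was close to absent. It had 6, 0, 6, 0 and 11 counts in Control replicates 2, 3, 5, 7 and 8, and 3, 2, 2, 0 and 3 counts in PexRAP-AKO replicates 1, 2, 3, 5 and 6. Its 3 highest counts fell in the 3 libraries with the most skeletal muscle transcripts, Control replicates 8, 2 and 5, at 1621, 553 and 481 CPM of summed markers, against 63.1 to 196 CPM in the other 7. These counts are too few to test, and the part of muscle in them was not tested. An antisense gene, Gm15932, shares 109 exon bases with Fitm1 and had 1 to 6 counts per library, and without strand information the reads cannot be told apart. Opposite-strand genes also share exon bases with Plin4 (17 bases, Hdgfl2), Fitm2 (227 bases, 2310001K24Rik) and Bscl2 (398 bases, Gng3). On the same strand, AC129217.1 shares 239 exon bases with Bscl2 and has no counts in the deposited count table.

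Hilpda (ENSMUSG00000043421, chromosome 6, 29272488 to 29275446) encodes a small droplet protein that inhibits the lipase ATGL and is induced by low oxygen and by fatty acids. It was the lowest of the tested members, from 5.53 to 7.38 CPM in Control and from 4.73 to 7.53 CPM in PexRAP-AKO, so the Control range lay inside that of PexRAP-AKO. The log2 fold change was -0.06 (95% interval -0.36 to 0.24, edgeR adjusted p = 0.871), and DESeq2 gave it no adjusted p.

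Over the 10 libraries the order of mean levels per length was Cidec, Plin4, Plin1, Plin2, Fitm2, Bscl2, Plin5, Plin3, Hilpda and Fitm1, from 1315 RPKM for Cidec to 0.251 RPKM for Fitm1. Of the 9 neighbouring pairs, 6 had ranges that did not overlap. The ranges of Plin4 and Plin1 overlapped, although Plin4 was the higher in each of the 10 libraries. Plin2 was above Fitm2 in 9 of 10 libraries, Control replicate 7 being the exception, and in PexRAP-AKO their ranges did not overlap. Plin5 was above Plin3 in 7 of 10 libraries, with ranges that overlapped in both groups. The order of these pairs was not tested. It rests on merged exon lengths, such as 5897 bases for Bscl2 and 3967 for Fitm2.

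Genes that work with the droplet coat were read from 5 lists holding 59 different genes, 55 of them tested. None of the 55 passed edgeR over all genes, and 15 had an unadjusted p under 0.05 (8 higher and 7 lower, against 15.5% of all genes). DESeq2 called 4, against 4.27% of the genes to which it gave an adjusted p, and limma voom 0, against 0.127%. The groups did not overlap for 3 of the 55, against 3.41% of all tested genes. Of 20 tested genes of droplet coat and formation other than the members, 6 had an unadjusted p under 0.05, 2 higher and 4 lower. Of all tested genes 15.5% met that rule. Tmem120a, a membrane protein needed for fat cell differentiation, stood at 269 to 311 CPM in Control and at 338 to 384 CPM in PexRAP-AKO, with no overlap (log2 fold change 0.33, SE 0.07, edgeR adjusted p = 0.0889, DESeq2 adjusted p = 5.02e-05). Ldaf1, the seipin partner also called promethin, averaged 33.6 ± 1.81 CPM over Control and 28.9 ± 3.59 CPM over PexRAP-AKO libraries (SD, n = 5 each), the opposite side from Bscl2, without passing (edgeR adjusted p = 0.244). Mospd2, a protein that tethers the endoplasmic reticulum to droplets and other organelles, had a log2 fold change of -0.24 and Mettl7a1 one of -0.19, neither passing.

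Of 10 genes of the lipase machinery that the coat controls, 2 had an unadjusted p under 0.05, both higher. Of all tested genes 15.5% met that rule and 9.01% met it in that direction. Abhd5, which Plin1 holds and which activates ATGL, stood at 121 to 145 CPM in Control and at 160.3 to 177 CPM in PexRAP-AKO, with no overlap (log2 fold change 0.28, SE 0.06, edgeR adjusted p = 0.0996, DESeq2 adjusted p = 0.0015). Prkaca, the catalytic subunit of the kinase that phosphorylates Plin1, had a log2 fold change of 0.35 (edgeR adjusted p = 0.185). G0s2, an inhibitor of ATGL, had 0.29 and Prkar2b, a regulatory subunit of that kinase, 0.08, neither passing.

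Of 8 PPAR and adipogenic regulators, whose products drive several perilipin genes, 4 had an unadjusted p under 0.05, against 15.5% of all tested genes. Ppargc1a (0.43) and Ppara (0.54) stood higher, and Rxra (-0.22) and Ppard (-0.25) lower, as log2 fold changes, with edgeR adjusted p from 0.225 to 0.309. Ppara is also in the brown adipocyte list. Of 12 hypoxia-inducible genes 10 were tested and 2 had an unadjusted p under 0.05, in opposite directions, against the same 15.5%. Ndrg1 averaged 79.7 ± 11.9 CPM over Control and 55.4 ± 8.74 CPM over PexRAP-AKO libraries (SD, n = 5 each, log2 fold change -0.52, edgeR adjusted p = 0.122, DESeq2 adjusted p = 0.00885). Egln3, an oxygen-sensing prolyl hydroxylase, had a log2 fold change of 0.69, Pdk1 0.27 and Egln1 0.14, none passing in edgeR.

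Of 10 further genes of inherited lipodystrophy, the disease group to which Plin1, Cidec and Bscl2 belong, 2 had an unadjusted p under 0.05. Of all tested genes 15.5% met that rule. Agpat2, the acyltransferase that makes phosphatidic acid, stood at 819 to 1358 CPM in Control and at 1432 to 2226 CPM in PexRAP-AKO, with no overlap (log2 fold change 0.95, SE 0.17, edgeR adjusted p = 0.0657, DESeq2 adjusted p = 7.20e-06). Pcyt1a, which sets the rate of phosphatidylcholine synthesis and binds growing droplets, had a log2 fold change of 0.16, Akt2 one of -0.12 and Lmna one of 0.08, none passing.

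**Figure D5:**
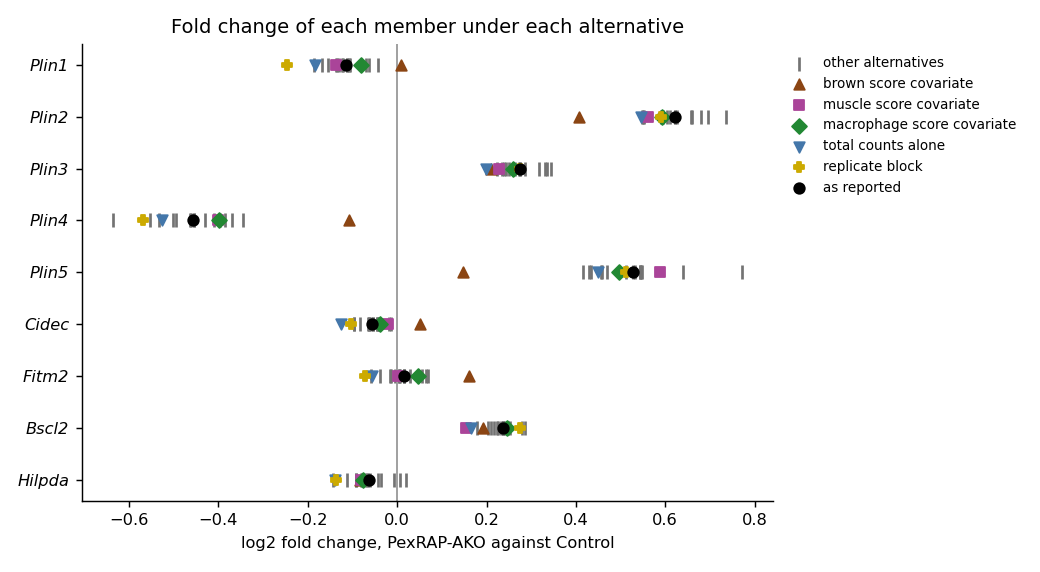
Log2 fold change of each tested gene as reported (black dot) and under 20 alternatives (5 drawn as coloured symbols, the others as ticks). The brown adipocyte covariate moves Plin4 from -0.46 to -0.11 and Plin5 from 0.53 to 0.15, and Plin2 stays between 0.41 and 0.74. This covariate is itself higher on average in PexRAP-AKO.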

How the data were processed

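RNA-seq counts of inguinal white fat from 5 Control and 5 PexRAP-AKO samples were used, grouped by sample title, the table's wt and ko columns matching the Control and PexRAP-AKO titles by number. Its unit is the raw count per gene as the authors deposited it, without normalization. Per the submitters' processing notes, STAR 2.0.4b, Subread, featureCounts and edgeR were used. Genome build, annotation and strand setting are not stated in the sources used here. Of 40724 rows, some repeat a gene: 117 identifiers occur more than once, each time with the same counts, and were used once. GENCODE M21 (GRCm38), which held 99.39% of identifiers, gave coordinates and exon lengths.

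Counts were filtered with filterByExpr (minimum count 10, minimum total 15), scaled by TMM and tested with edgeR 4.0.16 (R 4.3.3) by the robust quasi-likelihood F test without covariates, adjusted by Benjamini-Hochberg over 14913 genes at 0.05. Standard errors equal the log2 fold change over the root of F. Log2 CPM used a prior count of 2. Alternatives were DESeq2 1.42.0, limma 3.58.1 (voom), other scalings, no filter, marker scores as covariates, a replicate block and leaving out libraries. Correlations used 100000 permutations. On simulated counts for the 14913 genes of this comparison, edgeR recovered 46.3% of 1.5-fold, 78% of 2-fold and 93.2% of 4-fold changes, with 12 of 151 calls false. The noise of each simulated gene was drawn on its own, without the shared variation in cell content between these libraries. No 2 libraries of a group agreed within sampling noise (lowest chi-square per degree of freedom 7.084).

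The members and lists were chosen with earlier results of these data known. All members are named, and of each list the 4 genes with the lowest edgeR p.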

Additional observations from a re-analysis of the deposited data

Results flagged for a closer look

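Over 74 groups of 5 values (named genes and marker scores), 5 had 1 library apart from its group, where 3.7 would be flagged by chance. On the log2 CPM scale, Control replicate 8 was low for Abhd5 (6.92, the others at 7.13 to 7.18) and for Ppargc1a (4.17, the others at 4.73 to 4.87), and PexRAP-AKO replicate 1 was low for Agpat2 (10.48, the others at 10.94 to 11.12). Control replicate 5 was high in macrophage score (6.44, the others at 4.96 to 5.34). PexRAP-AKO replicate 6 was high in mammary and skin epithelium score (3.41, the others at -1.11 to -0.12), which rests on 1 tested marker of 6. None of the 9 tested droplet genes had such a library in either group.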

How the results depend on the processing

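The fit without both PexRAP-AKO replicate 6 and Control replicate 8, and the macrophage score as a covariate, were chosen after seeing the data. The number of droplet genes called was 0 by edgeR, 1 with DESeq2 (Plin2) and 0 in the other 19 alternatives, 0 to 0 without single libraries. Dhrs7b kept its call in 20 of 20 (log2 fold change -2.14 to -1.96). The count of all genes called, 15 (14 higher, 1 lower), was 439 with DESeq2 (309 and 130), 26 without a filter on low counts (22 and 4), 6 with the muscle score (5 and 1), 7 with the brown adipocyte score (6 and 1), 80 with the macrophage score (56 and 24), 5 without both named libraries (3 and 2) and 3 to 58 without single libraries (Control replicate 8 and PexRAP-AKO replicate 1). In a fit blocked on replicate number, possible for 6 libraries with numbers 2, 3 and 5, 3 genes and 0 droplet genes were called. The correlation of deviations between samples sharing a number was -0.021, -0.081 and 0.36, and no number was the best match of its own number from both groups, so shared numbers were not read as pairing. Of 180 fold changes of droplet genes under alternatives, 168 kept direction and side of the threshold, 1 gained a call and 11 changed sign, none of them passing. The 168 include Hilpda with DESeq2, which had no adjusted p and was taken as not called. Fitm2 changed sign with total counts alone (-0.055), limma voom (-0.0040), the replicate block (-0.071) and both named libraries left out (-0.013), and ran from -0.058 to 0.069 without single libraries. With the brown adipocyte score Plin1 (0.0087) and Cidec (0.051) changed sign, and Hilpda did without both named libraries (0.0054) and without PexRAP-AKO replicate 6 (0.020; -0.14 to 0.020 without single libraries). Total counts alone moved the median of all genes to -0.073. The causes were not tested. At this depth and sample number, 46.3% of simulated 1.5-fold changes were called. The simulation drew the noise of each gene on its own and gave 151 calls, against 15 in the data. Its recovery rates therefore need not hold for these libraries.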

Other observations

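The other relations between droplet genes and marker scores were examined after the values had been seen, over the same 10 libraries and the same 36 relations. Plin1 followed the adipocyte score most closely (r = 0.91, permutation p = 0.00053, adjusted p = 0.00636, rho = 0.82, permutation p = 0.00563, adjusted p = 0.0507, r = 0.81 without Control replicate 5 and PexRAP-AKO replicate 3). It went against the macrophage score (r = -0.85, permutation p = 0.00501, adjusted p = 0.0258, rho = -0.58, permutation p = 0.0887, adjusted p = 0.230, r = -0.70 without the same 2 libraries). Fitm2 did the same with macrophages (r = -0.84, permutation p = 0.00398, adjusted p = 0.0239, rho = -0.68, permutation p = 0.0346, adjusted p = 0.156, r = -0.67 without the same 2) and with adipocytes (r = 0.78, permutation p = 0.0106, adjusted p = 0.0425, rho = 0.56, permutation p = 0.0970, adjusted p = 0.233, r = 0.55 without the same 2). Bscl2 went against the skeletal muscle score (r = -0.83, permutation p = 0.00327, adjusted p = 0.0239, rho = -0.71, permutation p = 0.0268, adjusted p = 0.156, r = -0.64 without Control replicate 8 and PexRAP-AKO replicate 2). None of these 5 passed by rank.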
